A study of Tursiops truncatus with 76 samples.

Results

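The aryl hydrocarbon receptor gene AHR, the gene of its partner ARNT and the aldehyde dehydrogenase gene ALDH3B1 were followed through the blood transcriptomes of wild common bottlenose dolphins (Tursiops truncatus). A locus was taken as a member when the study's own supplementary tables pair its position with 1 of these 3 symbols, and each symbol was found at 1 locus, so that 3 of the 24094 loci of the expression table are described here. Only 3144 of these loci could be named in this way, and relatives such as AHRR, CYP1A1 and CYP1B1 are not among them and were not analysed here. The table holds whole blood of 71 animals in 76 samples. Barataria Bay (BAR) gave 60 of them, an estuary of Louisiana that was oiled after the Deepwater Horizon spill, and Sarasota Bay (SAR), Florida, the reference site without oiling, gave 16. BAR was sampled in June 2013, June 2014, June 2017, September 2017 and July 2018, with 12 samples each, and SAR in May 2014 and May 2016, with 8 samples each. All animals were free-ranging dolphins caught, examined and released, and sampled as whole blood, with no experimental exposure. BAR contributed 40 samples of females and 20 of males, SAR 8 of each. Birth cohort, pregnancy and health findings come from the study's sample table, and ages were not used. Of the BAR samples, 46 were from animals born before the spill, 9 from animals born after it and 5 from animals whose cohort could not be determined. Season cannot be told apart from site, since SAR was sampled in May and BAR from June to September.

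AHR is a transcription factor that rests in the cytoplasm in a complex with HSP90 and p23 until a ligand, such as a polycyclic aromatic hydrocarbon of crude oil or a dioxin, binds to it. It then enters the nucleus, pairs with ARNT, and the pair binds DNA at genes of detoxification, of which the cytochrome P450 gene CYP1A1 is the best known. ARNT is also the partner of the hypoxia-inducible factors, so it serves more than 1 pathway. ALDH3B1 encodes a membrane-bound aldehyde dehydrogenase that oxidizes fatty aldehydes, products of lipid peroxidation. In mammals AHR is also expressed in blood and immune cells, where it takes part in the regulation of T helper cells and of mast cells.

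On the Tur_tru v1 assembly, AHR lay on scaffold NW_017842131.1 from 64699714 to 64745942, and no other locus of the table overlapped it. ARNT lay on NW_017844458.1 from 2552979 to 2614661 and overlapped 1 unnamed locus whose mean FPKM was 0. ALDH3B1 lay on NW_017842782.1 from 130596 to 136152, overlapping no other locus. The coordinates span whole loci, introns included. FPKM count the sequenced fragments of a gene relative to its transcript length and to the size of the library. They give a level per length, so that genes of a library can be set side by side.

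All 3 genes were detected in every library and counted as expressed by the study's own criterion (mean FPKM of 1 or more, and detection in 50% of the samples or more). AHR averaged 19.0 ± 7.36 FPKM (SD, n = 76), with a range from 7.21 to 39.4. ARNT averaged 17.8 ± 4.83 FPKM and ranged from 6.88 to 28.4. ALDH3B1 was the most abundant of the 3 and the most variable, at 28.8 ± 18.7 FPKM, from 1.86 to 92.1. These means were higher than those of 63.4%, 61.9% and 72.8% of the 11485 expressed loci, respectively. Highest and lowest library differed 5.47-fold for AHR, 4.13-fold for ARNT and 49.6-fold for ALDH3B1. Within collections, the SD of ALDH3B1 on the scale of log2(FPKM + 1), after scaling of the libraries as described below, was 0.995, larger than that of 96.7% of the expressed loci. That of AHR was 0.42, close to the median of 0.40 over all loci, and that of ARNT was 0.25, smaller than in most loci (percentile 9.05).

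**Figure D1:**
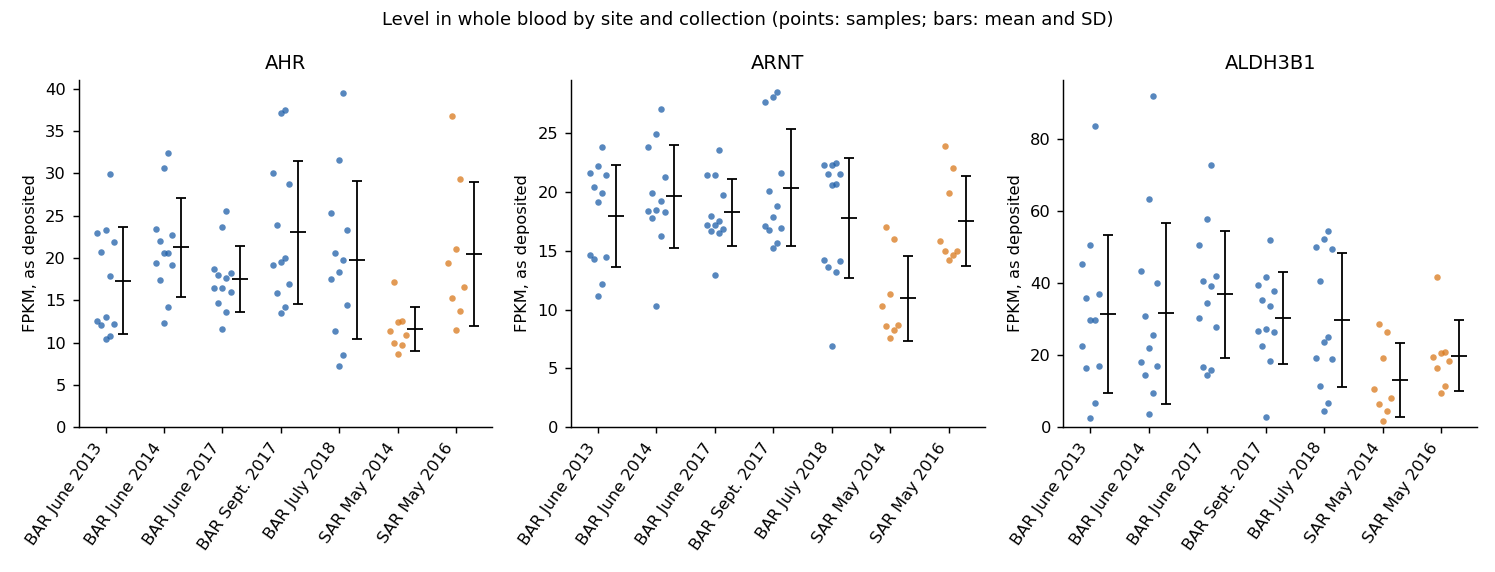
FPKM of AHR, ARNT and ALDH3B1 in each sample of the 5 BAR (blue) and 2 SAR (orange) collections, with the mean and SD of each collection beside the points. SAR in May 2014 had the lowest mean of all 3 genes, and ALDH3B1 spread widely within every BAR collection.

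FPKM are relative to the whole library, and this matters for every comparison between sites. Of 11485 loci, 73% differed between BAR and SAR in the values as deposited (limma on log2(FPKM + 1), Benjamini-Hochberg adjusted p at most 0.05), 70.4% being higher in BAR and 2.54% lower, and the median locus was 0.39 higher in BAR on the log2 scale. When libraries were rescaled by the median of their ratios to the geometric mean of all libraries (median-ratio scaling), 7.69% of loci differed and the median was 0.01. Values are therefore given as deposited and with this scaling. The BAR library with the lowest summed FPKM, July 2018 replicate 1, stood apart from the rest and was left out as an alternative. The step that 1 fragment is worth in low FPKM values put depth between 0.651 and 1.45 times that of the median library, but rested on 1 locus in the library with the fewest usable loci.

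AHR was higher in BAR than in SAR as deposited, by no more than the typical gene. BAR samples ranged from 7.21 to 39.4 FPKM with a median of 18.9, and SAR samples from 8.65 to 36.7 with a median of 13.2. The sites overlapped over nearly their whole range, with 3 BAR samples above the highest SAR sample and 49 of 60 above the SAR median. The difference was 0.31 on the log2 scale (SE 0.14, 95% interval 0.03 to 0.59, adjusted p = 0.040, limma), below the median of all loci. With median-ratio scaling it was -0.11 (SE 0.12, interval -0.35 to 0.13, adjusted p = 0.66), and with sex as a term in the values as deposited it was 0.26 (adjusted p = 0.080), so the call depended on both choices. With each BAR collection set alone against the 16 SAR samples, AHR was called in June 2014 (0.45, adjusted p = 0.031) and September 2017 (0.53, adjusted p = 0.031) as deposited, where 67.6% and 43.6% of all loci were called, and in none of the 5 after scaling.

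ARNT followed the median gene closely. It ranged from 6.88 to 28.4 FPKM in BAR, with a median of 18.6, and from 7.60 to 23.9 in SAR, with a median of 14.8. Again 48 of 60 BAR samples lay above the SAR median, and 5 above the highest SAR sample. The difference of 0.41 (SE 0.11, interval 0.20 to 0.62, adjusted p = 0.00096, limma) became -0.02 with scaling (SE 0.08, interval -0.16 to 0.13, adjusted p = 0.94). The ratio of AHR to ARNT within a library does not depend on scaling. Its geometric mean was 1.02 in BAR and 1.10 in SAR, a log2 difference of -0.10 (permutation test, two-sided, p = 0.37, adjusted p = 0.94 over 10 such tests, chosen after the data were seen).

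ALDH3B1 showed the widest gap between the sites. Its symbol was available only because the study lists this locus among those that differed between sites, so its site values are described without a test. BAR samples ranged from 2.49 to 92.1 FPKM with a median of 29.9, and SAR samples from 1.86 to 41.8 with a median of 17.5. No BAR sample lay below the lowest SAR sample, 16 lay above the highest, and 15 of 16 SAR samples lay below the BAR median. The mean log2 difference was 0.89 as deposited and 0.47 after scaling. Against SAR, each BAR collection alone gave a higher ALDH3B1, between 0.75 in July 2018 and 1.23 in June 2017 as deposited, and between 0.24 in June 2014 and 0.82 in June 2017 after scaling.

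**Figure D2:**
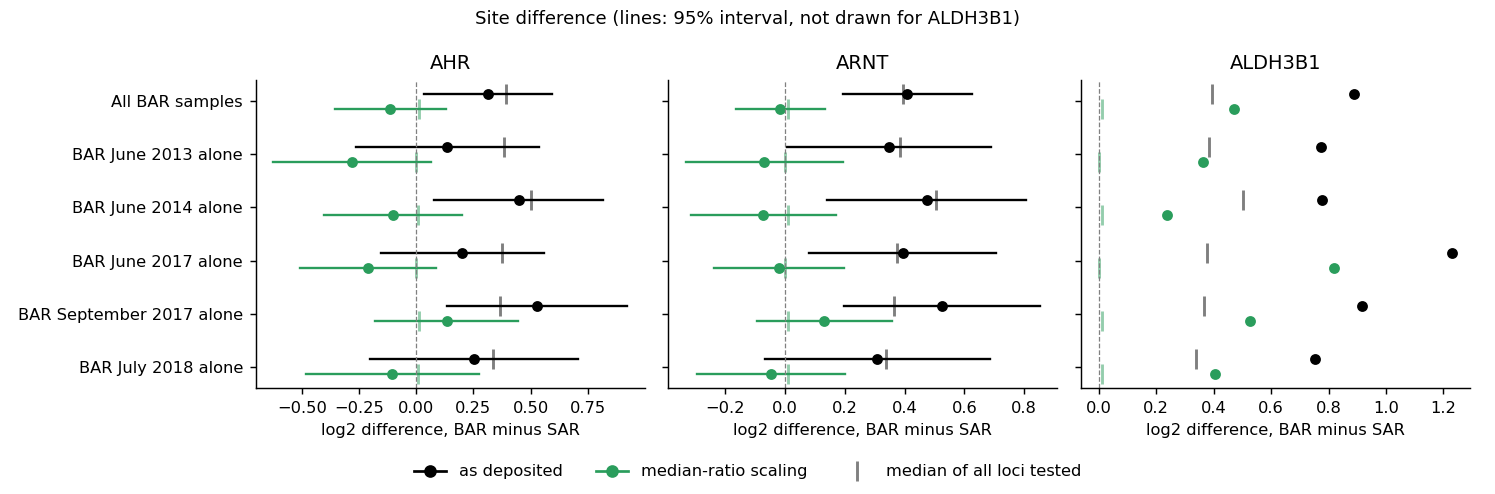
Difference between BAR and SAR on the scale of log2(FPKM + 1) for all BAR samples and for each BAR collection alone against the 16 SAR samples, as deposited (black) and with median-ratio scaling (green). Lines are 95% intervals (none for ALDH3B1), upright ticks the median of all loci tested, and the panels differ in their horizontal scale. After scaling, AHR of single collections lay between -0.28 and 0.13 and ARNT between -0.07 and 0.13.

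In 2014 both sites were sampled within a few weeks, and as deposited the gap was wider than over all years, for the median locus too. AHR ranged from 12.4 to 32.4 FPKM in BAR in June 2014 (median 20.6, n = 12) and from 8.65 to 17.1 in SAR in May 2014 (median 11.2, n = 8). Of the BAR samples 10 of 12 exceeded every SAR sample for AHR, and likewise 10 of 12 for ARNT, which ranged from 10.3 to 27.0 in BAR (median 18.8) and from 7.60 to 17.0 in SAR (median 9.47). AHR differed by 0.80 (SE 0.16, adjusted p = 0.00026, limma) and ARNT by 0.80 (SE 0.17, adjusted p = 0.00037). In this year 72.6% of 11423 loci were called and the median locus differed by 0.67. After scaling, which left 10.8% of loci called, AHR differed by 0.07 (adjusted p = 0.84) and ARNT by 0.07 (adjusted p = 0.79). The ratio of AHR to ARNT was 1.07 in BAR and 1.08 in SAR (exact permutation test, p = 0.96). ALDH3B1, again without a test, averaged 31.7 ± 25.2 FPKM in BAR and 13.3 ± 10.3 in SAR, with 5 of 12 BAR samples above the highest SAR sample, a log2 difference of 1.1845 as deposited and 0.46 scaled.

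The SAR samples of May 2014 were also lower than those of May 2016 at the same site. AHR in May 2014 lay at 8.65, 9.69, 9.95, 10.9, 11.4, 12.4, 12.5 and 17.1 FPKM. In May 2016 it lay at 11.52, 13.8, 15.3, 16.6, 19.4, 21.1, 29.4 and 36.7 FPKM. The 2 collections overlapped, with 4 of 8 samples of 2016 above all of 2014. The rise to 2016 was 0.71 (SE 0.21, adjusted p = 0.031, limma). ARNT ranged from 7.60 to 17.0 FPKM in 2014 (median 9.47) and from 14.2 to 23.9 in 2016 (median 15.4), a rise of 0.66 (SE 0.19, adjusted p = 0.026, limma). ALDH3B1 had 13.3 ± 10.3 and 19.88 ± 9.81 FPKM (SD, n = 8 each), and its difference of 0.81 (SE 0.41, interval -0.04 to 1.67) did not pass (adjusted p = 0.16). Between these collections 17.2% of 11059 loci were called, and the median locus differed by 0.32. With scaling the differences were 0.33 for AHR (adjusted p = 0.34), 0.29 for ARNT (adjusted p = 0.30) and 0.46 for ALDH3B1 (adjusted p = 0.57), none past the threshold.

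Within BAR no member was called between years. AHR was highest on average in September 2017, at 23.0 ± 8.42 FPKM, then in June 2014, at 21.2 ± 5.82, and in July 2018, at 19.8 ± 9.34. It was lowest in June 2017, at a mean of 17.5 (range 11.6 to 25.6), and in June 2013, at 17.3 ± 6.35 (SD, n = 12 each). Neighbours in this order differed by less than their SD, and SAR in May 2016 (20.5 ± 8.54, n = 8) fell within it. For ARNT the BAR means lay between 17.8 ± 5.12 FPKM in July 2018 and 20.3 ± 4.97 in September 2017. For ALDH3B1 they lay between 29.8 ± 18.7 in July 2018 and 37.0 ± 17.7 in June 2017. Of 11582 loci, 1.16% were called between 2017 and 2014, and 0% between 2014 and 2013, 2017 and 2013, 2018 and 2013, 2018 and 2014, and 2018 and 2017, where 990, 1565, 590, 1669 and 782 loci had an unadjusted p below 0.05 in limma. As deposited, the largest year difference of AHR was 0.31 (2014 against 2013, SE 0.20, adjusted p = 0.66). The largest of ARNT was -0.17 (2018 against 2014, SE 0.15, adjusted p = 0.59), and of ALDH3B1 -0.32 (2018 against 2017, SE 0.36, adjusted p = 0.87), over 6 pairs of years. After scaling this ARNT difference turned to 0.026, and over the 6 pairs the differences lay between -0.065 and 0.24 for AHR, -0.10 and 0.13 for ARNT, and -0.27 and 0.44 for ALDH3B1. Between September and June 2017, where 0% of 11582 loci were called by limma (640 with an unadjusted p below 0.05), AHR differed by 0.33 (SE 0.20, interval -0.06 to 0.72, adjusted p = 0.95), ARNT by 0.13 and ALDH3B1 by -0.31 (SE 0.41).

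In 5 BAR animals blood was taken in 2 collections, and both levels of each animal can be set side by side. AHR at the later time was 0.67 to 1.39 times the earlier value, and ARNT 0.83 to 1.74 times. ALDH3B1 had 50.8 and then 31.1 FPKM in a male of June 2013 and June 2014. In females sampled in June 2014 and September 2017 it had 40.2 and 51.9 FPKM in 1 animal and 9.58 and 18.4 in another. A male sampled in September 2017 and July 2018 had 2.97 and 6.83 FPKM, and a female of the same collections had 33.8 and 23.8. The animal with the lowest ALDH3B1 at the earlier time also had the lowest at the later time, and pairs differed by at most 2.30-fold. Pairs of different animals were not compared in this way, so persistence within an animal was not tested. With 5 animals this is a description only.

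Birth before or after the spill was not accompanied by a difference in any member that passed the test. For BAR, the study reports higher expression in the pre-spill cohort for the modules of co-expressed genes that hold AHR and ARNT. Cohort cannot be told apart from age, since at any collection the animals born after the spill were the younger ones. AHR ranged from 7.21 to 39.4 FPKM in the pre-spill cohort (median 19.7, n = 46) and from 10.7 to 22.1 in the post-spill cohort (median 17.6, n = 9). The post-spill values fell wholly within the pre-spill range. The difference was 0.20 (SE 0.17, interval -0.15 to 0.54, adjusted p = 0.59, limma). ARNT had 19.2 ± 4.27 FPKM before and 16.7 ± 3.06 after, a difference of 0.18 (SE 0.12, interval -0.05 to 0.41, adjusted p = 0.44, limma). ALDH3B1 had 32.4 ± 19.89 and 25.9 ± 8.54 FPKM, and its log2 difference was 0.04 (SE 0.37, interval -0.69 to 0.78, adjusted p = 0.97, limma). Of 11585 loci 0.76% were called, 0.604% higher in the pre-spill cohort and 0.155% lower. Of the 9 post-spill samples 6 came from June 2017, against 3 of the 46 pre-spill samples, and within that collection the differences were 0.05 for AHR, 0.06 for ARNT and 0.26 for ALDH3B1.

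Among health and reproductive findings, ALDH3B1 was higher on average, without passing adjustment, in dolphins with a hepatobiliary finding, a veterinary sign of liver or bile duct disorder. In BAR the 9 samples with the finding had 22.1, 30.4, 37.9, 39.3, 50.6, 50.8, 54.6, 73.0 and 83.8 FPKM of ALDH3B1. The 51 samples without it ranged from 2.49 to 92.1, with a median of 26.9. Of the 9 samples 8 lay above that median, and 19 of the 51 lay below all 9. After scaling, ALDH3B1 varied more within collections than 96.7% of expressed loci, which a rank of differences does not take into account. The log2 difference was 0.94 (SE 0.34, interval 0.248 to 1.625) as deposited, larger than that of 99.93% of loci. Its unadjusted p was 0.0085, and it did not pass adjustment over all loci (adjusted p = 0.998, limma), nor did any other locus: 0% of 11582 were called, with 495 below an unadjusted p of 0.05. Over the alternatives tried the adjusted p of ALDH3B1 lay between 0.49 and 0.999. The difference was 0.93 with scaling, 0.88 with collection and sex as terms, and 0.93 for the ratio of ALDH3B1 to ARNT (permutation test, p = 0.013, adjusted p = 0.13 over 10 tests). The 9 samples came from all 5 BAR collections, 4 of them from June 2017. Markers of some cell types shared a direction in this comparison, none of them called. All 3 named neutrophil markers, all 5 platelet markers and all 4 natural killer and cytotoxic markers had positive differences (median 0.35, 0.44 and 0.30). All 9 red cell markers had negative ones (median -0.30). The other lists of the 9 cell types are not given, so these are a selection. Over all loci, positive and negative differences were about equally frequent. Markers of the same cell type are not independent of each other, so these counts are a description only. The part of these markers in the ALDH3B1 difference was not tested. AHR differed by -0.17 (SE 0.18) and ARNT by 0.06 (SE 0.13) in the same comparison.

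In anemia ALDH3B1 was lower on average, again without passing adjustment. The 6 BAR samples with anemia had 3.61, 4.58, 9.58, 16.6, 50.8 and 54.6 FPKM, and the 54 without it ranged from 2.49 to 92.1 with a mean of 33.05. The samples with anemia were thus split, with 4 below 20 FPKM and 2 above 50. The 2 above 50 FPKM also had the hepatobiliary finding, and the 4 others did not. The difference was -0.89 (SE 0.42, interval -1.72 to -0.05, unadjusted p = 0.038, adjusted p = 0.999, limma), and -0.75 with collection and sex as terms (interval -1.65 to 0.15). No locus was called (0% of 11582, 400 with an unadjusted p below 0.05). AHR and ARNT differed by -0.04 (SE 0.21) and -0.07 (SE 0.15).

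**Figure D3:**
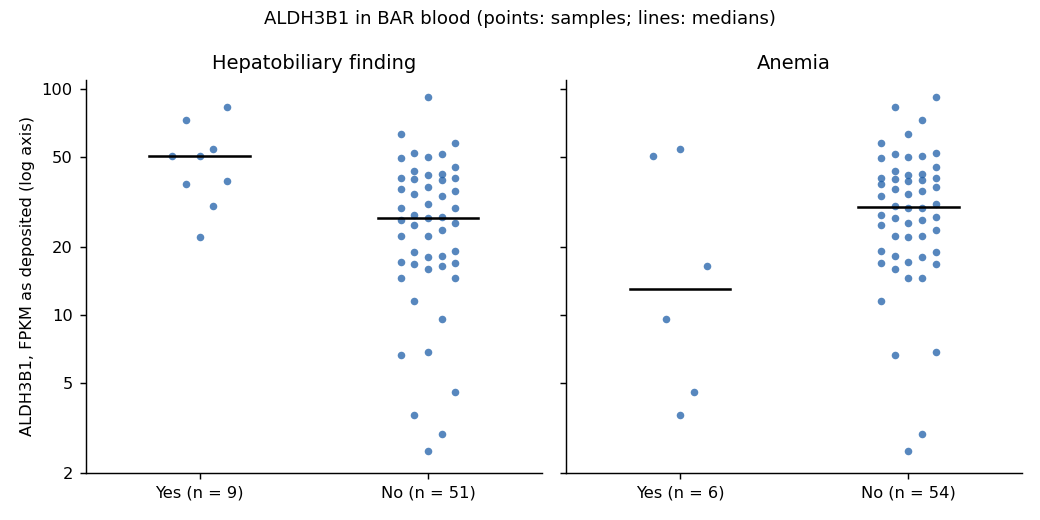
FPKM of ALDH3B1 on a log axis in BAR samples with and without a hepatobiliary finding (9 and 51) and with and without anemia (6 and 54). Points are samples and lines are medians. The 9 samples with a hepatobiliary finding all lay at or above 22.1 FPKM, and those with anemia fell into low and high values.

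For the remaining findings no member was called. Inflammation (12 against 48 samples, 0% of 11582 loci called by limma, 712 with an unadjusted p below 0.05) gave 0.16 for AHR (SE 0.16), 0.17 for ARNT (SE 0.11) and 0.05 for ALDH3B1 (SE 0.32). Altered iron status (6 against 54, 0% called by limma, 479 with an unadjusted p below 0.05) gave 0.20, 0.17 and 0.57 (SE 0.21, 0.15 and 0.43). Moderate or severe against normal or mild lung scores (19 against 38, 0% of 11565 loci called by limma, 877 with an unadjusted p below 0.05) gave 0.06, 0.00 and 0.35 (SE 0.14, 0.10 and 0.28). In females of both sites, ALDH3B1 ranged from 3.61 to 52.3 FPKM in pregnancy (n = 21) and from 1.86 to 83.8 without it (n = 20). The pregnancy differences were 0.10 for AHR (SE 0.16), 0.05 for ARNT (SE 0.13) and 0.07 for ALDH3B1 (SE 0.31), where 0.00865% of 11558 loci were called. SAR gave 5 of the 20 samples without pregnancy and 1 of the 21 with it, and in BAR only the differences were 0.15, 0.033 and -0.24 (SE 0.16, 0.12 and 0.29). Failed against successful pregnancies, with 1 SAR animal among the successful ones (13 against 6, 0% of 11576 loci called by limma, 634 with an unadjusted p below 0.05) gave 0.27, 0.16 and 0.07 (SE 0.25, 0.22 and 0.40).

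**Figure D4:**
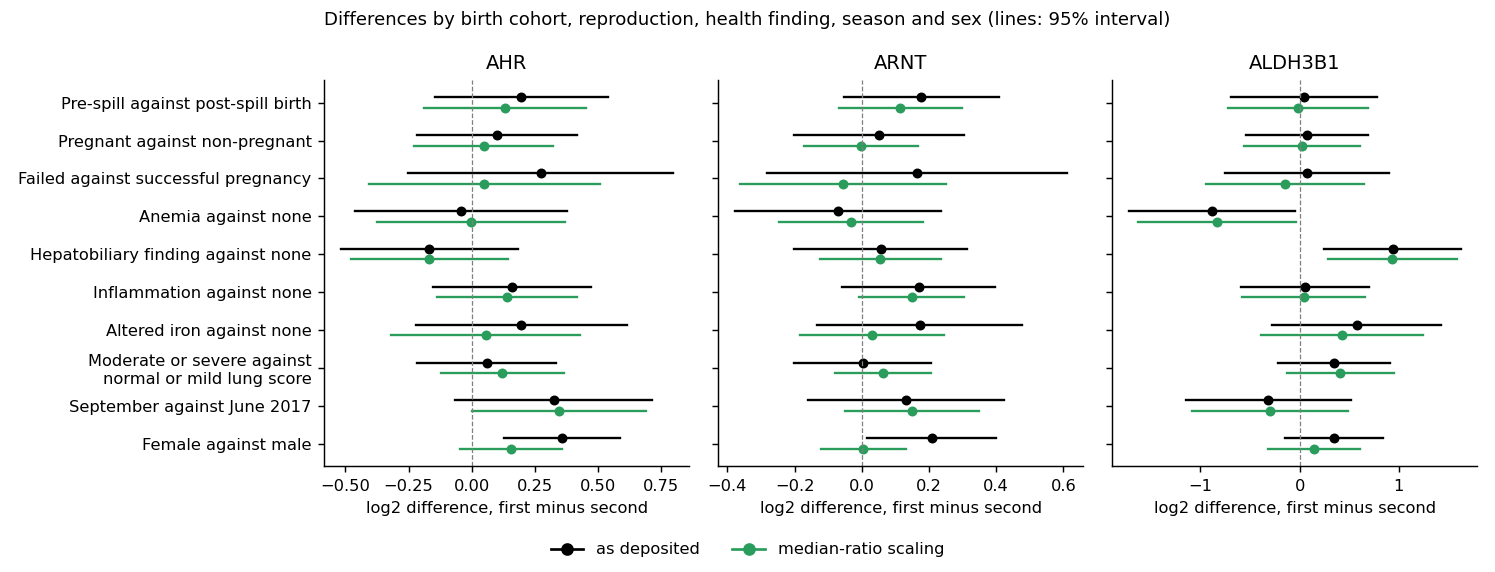
Differences of AHR, ARNT and ALDH3B1 on the scale of log2(FPKM + 1), with 95% intervals, for birth cohort, reproduction, health findings, season and sex, as deposited (black) and with median-ratio scaling (green). The panels differ in their horizontal scale. The 95% interval of ALDH3B1 lay above 0 for hepatobiliary findings and below 0 for anemia, and no member passed adjustment over all loci except AHR between the sexes as deposited.

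AHR was higher in females as deposited. Females ranged from 10.4 to 39.4 FPKM (median 19.3, n = 48) and males from 7.21 to 32.4 (median 14.3, n = 28), so the sexes overlapped widely. The difference was 0.36 (SE 0.12, interval 0.13 to 0.59, adjusted p = 0.048, limma), larger than that of 94.1% of loci, where 6.8% of 11485 loci were called and the median was 0.19. It was no longer called with median-ratio scaling (0.16, adjusted p = 0.85), with collection as a term (adjusted p = 0.066), in BAR alone (0.26, adjusted p = 0.22) or without the July 2018 library of lowest summed FPKM, a male (0.33, adjusted p = 0.096). ARNT differed by 0.21 (SE 0.10, adjusted p = 0.12) and ALDH3B1 by 0.35 (SE 0.25, adjusted p = 0.28). In SAR, AHR had 19.8 ± 9.17 FPKM in females and 12.2 ± 2.83 in males (SD, n = 8 each), and in BAR 20.9 ± 7.22 (n = 40) and 17.6 ± 6.62 (n = 20). A test of whether the site difference depended on sex called 0% of 11485 loci in limma (336 with an unadjusted p below 0.05), with -0.31 for AHR (SE 0.27), 0.24 for ARNT (SE 0.21) and 0.51 for ALDH3B1 (SE 0.57).

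AHR varied across dolphins together with genes of basophils and eosinophils. Among all 11485 expressed loci, the 6 with the highest Pearson r to AHR over the 76 samples, after scaling, all had a symbol. MS4A2, the beta chain of the high-affinity IgE receptor of basophils and mast cells, led with r = 0.91 (0.92 within BAR and 0.89 within SAR). It was followed by IL5RA, the interleukin 5 receptor of eosinophils and basophils (0.85), the leukotriene receptor gene CYSLTR2 (0.85), the phosphodiesterase gene PDE4D (0.83), RHEX (0.82) and PLA2G4A, the phospholipase that releases arachidonic acid (0.82). The median r of AHR over all expressed loci was -0.01. AHR owes its name here to modules of co-expressed genes that the study built on these samples and that also hold MS4A2 and IL5RA, so this likeness is not independent evidence. MS4A2 averaged 221.5 FPKM, and IL5RA 52.1 FPKM. ARNT was most like MCTP2 (0.71), the scaffold gene IQGAP1 (0.70), KIAA0232 (0.69), the glycogen phosphorylase gene PYGL (0.69), FAM65B (0.69) and LRRFIP1 (0.69). ALDH3B1 resembled no gene as closely. Its most similar named loci were CRLF3 (0.40), RUBCNL (0.39), DGKG (0.35), ORAI2 (0.35), RHOB (0.35) and EGLN3 (0.33), and 3 unnamed loci ranked above CRLF3.

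Scores of cell type markers, the mean log2(FPKM + 1) of the scaled markers that could be named, were set against the 3 genes in 27 relations (3 genes by 9 cell types). AHR had r = 0.75 and rho = 0.72 with the basophil and mast cell score (FCER1A, GATA2 and MS4A2, 3 of 9 markers named), with r = 0.78 within BAR and 0.65 in the 16 SAR samples. Without the 2 samples farthest from the median score r was 0.71, and with the earliest sample of each of the 71 animals it was 0.76. With the eosinophil score (CCR3, IL5RA, PRG3 and ADGRE1, 4 of 10 named) AHR had r = 0.62 and rho = 0.61, 0.65 within BAR and 0.63 within SAR, and 0.59 without the 2 farthest samples. The study's modules hold 2 of these 3 and 3 of these 4 markers together with AHR, so both relations restate the naming of the loci in part and are given as a description with no test. AHR had r = -0.35 and rho = -0.31 with the B cell score, none of whose markers shares a module with it (adjusted permutation p = 0.0084 and 0.022), -0.29 within BAR (adjusted p = 0.056) and -0.56 within SAR (adjusted p = 0.18). As deposited, where all genes share the factor of their library, this r was -0.08 and did not pass. All markers were named through lists that the study drew from these samples. Sharing no module therefore does not make the relation with the B cell score independent evidence. In whole blood, fewer cells of a type and less RNA per cell cannot be told apart.

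**Figure D5:**
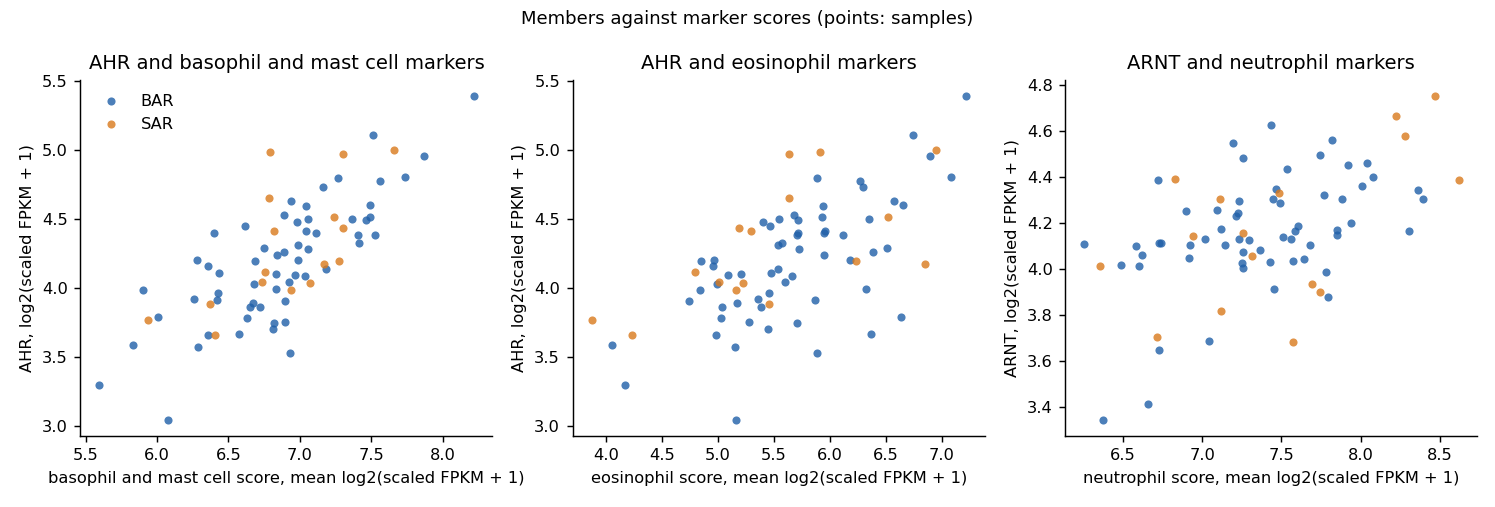
Log2(FPKM + 1) after median-ratio scaling, for AHR against the basophil and mast cell score and the eosinophil score, and for ARNT against the neutrophil score, in 60 BAR (blue) and 16 SAR (orange) samples. Each point is a sample. AHR had r = 0.75 and 0.62 with these scores, and ARNT r = 0.50 with the neutrophil score.

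ARNT varied with other white cell markers. Its r was 0.50 with the neutrophil score (rho = 0.46), 0.47 with monocytes and 0.46 with basophils and mast cells. All 3 neutrophil markers, both monocyte markers and 1 of the 3 basophil and mast cell markers stand in a module of the study with ARNT, so these values are a description with no test. Of the scores that share no module with it, ARNT had r = 0.32 with eosinophils, -0.32 with T cells and -0.41 with B cells, each past the threshold with an adjusted permutation p of at most 0.015. After scaling these 3 passed within BAR and none within the 16 SAR samples, where r was 0.01 for eosinophils. As deposited the relation with T cells turned to 0.37 and that with B cells to 0.038. The markers of these scores too were named through lists drawn from these samples, so the relations are not independent evidence. After scaling ALDH3B1 showed no relation past the threshold by r over the 76 samples. Its largest was -0.23 with red cell markers (adjusted permutation p = 0.13), and with neutrophils it had r = 0.17 (adjusted permutation p = 0.28) and rho = 0.31 (adjusted permutation p = 0.022), with rho = 0.37 within BAR (adjusted permutation p = 0.011). As deposited ALDH3B1 passed by r with neutrophils (0.36, adjusted permutation p = 0.0039), monocytes (0.31, adjusted permutation p = 0.012) and red cells (-0.33, adjusted permutation p = 0.0088). By rank the scaled relation with red cells also passed (rho = -0.28, adjusted permutation p = 0.039), though not within BAR (rho = -0.21, adjusted p = 0.21). ALDH3B1 was named only through the study's list of loci that differ between sites, and the red cell score was higher in SAR. Its relations over the samples of both sites are therefore not independent evidence, and site was not a term in them. Between members, AHR and ARNT had r = 0.46 and rho = 0.42 (adjusted permutation p = 0.00021 over 3 pairs for r), 0.49 within BAR, 0.37 within SAR (adjusted p = 0.46) and 0.38 without the 2 samples farthest from the ARNT median. ALDH3B1 had r = -0.10 with AHR (adjusted permutation p = 0.40) and 0.20 with ARNT (adjusted permutation p = 0.11).

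The marker levels themselves overlapped between the sites. The summed FPKM of the eosinophil markers ranged from 114 to 895 in BAR (median 323.5) and from 84.95 to 519 in SAR (median 252), and that of the basophil and mast cell markers from 294 to 2759 (median 950.3) and from 497 to 1343 (median 986). No marker of these lists was at 0 throughout a site. The scaled basophil and mast cell score was 6.87 ± 0.51 in BAR and 6.91 ± 0.43 in SAR, and the eosinophil score 5.69 ± 0.66 and 5.50 ± 0.86 (SD, n = 60 and 16). Between cohorts the 4 eosinophil and 3 basophil and mast cell markers all had positive differences (median 0.49 and 0.40), none called, while the 7 B cell markers all had negative ones (median -0.80, 1 called as deposited and 7 after scaling, where 0.76% and 2.78% of all loci were called). Their part in the cohort values of AHR was not tested. These markers were named through the study's modules and lists, 1 of which holds genes that differ between these cohorts. The marker counts are therefore not independent evidence, also where they are set beside the share of all loci.

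Other genes of the AHR pathway could be named only in part. Of 24 genes of the AHR complex and its coregulators besides the members, 7 were named and expressed: the chaperone gene HSP90AB1, PTGES3 (p23), the coactivator genes NCOA2, NCOA3, CREBBP and EP300, and ARNTL, a relative of ARNT that serves the circadian clock. As deposited 6 of these 7 were higher in BAR, as were 70.4% of all loci, with a median difference of 0.45 against 0.39 over all loci, and with median-ratio scaling or quantile normalization, where 7.69% and 7.25% of all loci were called, none passed (median 0.08 and 0.07). ARNTL moved most, from 6.19 ± 2.78 FPKM in SAR to 10.3 ± 3.50 in BAR, which is 0.68 (SE 0.13, adjusted p = 4e-05, limma) as deposited and 0.29 (adjusted p = 0.069) scaled. Of 20 AHR targets and inducible genes only CDKN1A, CDKN1B, IDO1 and IL1B were named. CDKN1B, a cell cycle inhibitor, was higher in BAR as deposited (82.8 ± 18.4 against 57.01 ± 14.6 FPKM, 0.54, SE 0.09, adjusted p = 1.1e-05). After scaling CDKN1B was at 0.09 (adjusted p = 0.37), and CDKN1A, another inhibitor, was lower in BAR (-0.40, SE 0.11, adjusted p = 0.0070) although it differed by 0.05 as deposited. With quantile normalization CDKN1B was higher (0.20, adjusted p = 0.031) and CDKN1A lower (-0.31, adjusted p = 0.036).

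Among 35 other genes of detoxification and redox defense, 14 were named, of which 9 were higher and 2 lower in BAR as deposited (median 0.34), and 0 and 3 with median-ratio scaling (median -0.11). Over all loci 70.4% were higher and 2.54% lower as deposited, and 1.99% and 5.69% with median-ratio scaling. With quantile normalization, where 3.37% of all loci were higher and 3.88% lower, 2 were higher, GSTK1 and KEAP1, and 2 lower. The genes lower under all 3 treatments of the values were the glutathione S-transferase gene GSTM3 and GCLM, a subunit of the enzyme that begins glutathione synthesis. GSTM3 had 44.6 ± 30.8 FPKM in BAR and 90.5 ± 43.5 in SAR, lower by -1.14 (SE 0.26, adjusted p = 0.00021, limma) as deposited and by -1.59 scaled (adjusted p = 7.5e-05). GCLM had 25.7 ± 10.8 and 33.6 ± 11.0 FPKM, with -0.41 (adjusted p = 0.019) and -0.85 (adjusted p = 0.00059). CYB5A was the third after scaling (-0.54, adjusted p = 0.044). The red cell marker score, from 9 of 11 markers, was higher in SAR as well (7.72 ± 0.59 against 6.42 ± 0.91 scaled), with a summed FPKM from 16220 to 54590 in SAR and from 4022 to 45090 in BAR. Its part in the values of GSTM3 and GCLM was not tested. Between cohorts, where 0.76% of all loci were called as deposited and 2.78% scaled, 1 of the 14 passed as deposited, MGST3, a membrane-bound glutathione transferase. It was higher in the pre-spill cohort by 0.81 (SE 0.21, adjusted p = 0.045, limma) and by 0.75 scaled (adjusted p = 0.0225). With collection and sex as terms in the values as deposited, 0.0345% of all loci were called between cohorts. Whether MGST3 was among them was not examined. HMOX1, heme oxygenase 1, passed only after scaling (0.49, adjusted p = 0.027, against 0.56 and adjusted p = 0.055 as deposited).

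Of 18 other aldehyde dehydrogenases 5 were named (ALDH16A1, ALDH1A1, ALDH1L2, ALDH3A2 and ALDH9A1). All 5 were higher in BAR as deposited, as were 70.4% of all loci (median 0.43, near the 0.39 of all loci), and none with median-ratio scaling or quantile normalization (median 0.07 and 0.09). ALDH3A2, like ALDH3B1 a fatty aldehyde dehydrogenase, differed by 0.51 (adjusted p = 0.00034) as deposited and 0.07 (adjusted p = 0.73) scaled, and ALDH1A1, a retinaldehyde dehydrogenase, by 0.82 (SE 0.29, adjusted p = 0.011) and 0.46 (adjusted p = 0.37). No locus of these 4 lists was called between BAR years as deposited, and none of the complex, target or aldehyde dehydrogenase lists between cohorts. Named loci are largely those that the study placed in its modules and lists from these samples, so these counts are not independent evidence.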

How the data were processed

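Whole-blood RNA of 76 dolphin samples was sequenced by the authors from directional libraries. Per the study's methods and the submitters' processing notes, reads were trimmed (Trimmomatic 0.33), hemoglobin genes masked, and reads aligned to Tur_tru v1 with TopHat2 2.1.1 and Bowtie2, and the authors deposited FPKM per locus from Cufflinks 2.2.1. A second sheet with identical values was not used. Read totals are not given with the FPKM, so depth could be estimated only in relative terms, and FPKM of a library shift together when a few abundant transcripts take a larger share. Symbols came from locus and symbol pairs in the study's supplementary tables (3144 loci, 3099 symbols). Cohort, pregnancy and health columns came from the study's sample table.

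Differences were tested with limma 3.58.1 (R 4.3.3, moderated with a mean trend) on log2(FPKM + 1), over loci whose mean FPKM was 1 or more and that were detected in 50% or more of the samples in the comparison, with Benjamini-Hochberg adjustment over all loci and a threshold of 0.05. A fold change on this scale understates the change of low genes. Median-ratio factors came from 11306 loci above 0 in every library (0.489 to 1.51). Other alternatives were quantile normalization, a pseudocount of 0.1, no filter, the animal as a replicate block, sex or collection as terms, and leaving out the BAR library of lowest summed FPKM. The block joins the samples of each of the 5 animals sampled in 2 collections, as the sample table gives them, through 1 correlation shared by all loci. Relations across samples used Pearson's r and Spearman's rho with 100000 permutations, two-sided, whose smallest p is 1e-05 (scipy 1.17.1, numpy 2.4.6, pandas 2.3.3, Python 3.11.15, figures by matplotlib 3.10.9). The script was tested on simulated data. Named in full were the members, the 6 named loci most like each, and the listed pathway genes that passed a test. HSP90AB1, PTGES3, IL1B, IDO1 and the other list members were named to show which genes the lists hold. Members and lists were chosen with earlier results of these data known. Samples taken as replicates are separate blood samples, of which 10 came from the 5 repeated animals. No sequence is printed.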

Additional observations from a re-analysis of the deposited data

Results flagged for a closer look

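Of 39 groups of 4 to 10 samples screened with Dixon's test, 6 held a sample set apart from the rest of its group. The usual chance share of 1 in 20 holds for separate groups of normally spread values. Here FPKM were screened without a log and groups shared samples, so the count cannot be set against that share. In AHR, the highest sample of SAR in May 2014 had 17.1 FPKM and the next 12.5 FPKM. Among the 6 successful pregnancies the highest AHR was 37.1 FPKM. In ALDH3B1, the highest sample of SAR in May 2016 had 41.8 FPKM and the next 21.1, and the same 41.8 FPKM sample stood apart among the 8 SAR females. The highest ALDH3B1 among the 6 samples with a severe lung score was 83.8 FPKM, in a dolphin that also had a hepatobiliary finding, and among the successful pregnancies it was 43.4 FPKM.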

How the results depend on the processing

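All differences are on the log2 scale. Of 64 alternatives to the 7 called member differences, 24 kept the call, 29 kept the direction without the call and 11 reversed it. For the 53 others, not called or not tested, 347 alternatives gave 37 reversals and 0 calls. The ALDH3B1 site values are among these 53, had no test and so could not be called. The animal as a replicate block changed no call where it was fitted, which was only in comparisons that held repeated animals. It was not fitted for the sites in 2014 or for the SAR years. The fit with the replicate block gave -0.0073 for ARNT and lung score, -0.033 for ALDH3B1 and pregnancy outcome, and -0.051 for ALDH3B1 in 2014 against 2013. It also gave 0.044 for ARNT in 2017 against 2014, and 0.07 and 0.12 for ALDH3B1 in 2018 against 2013 and 2014. The cause was not tested for any of these changes.

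With median-ratio scaling, BAR against SAR was -0.11 for AHR and -0.015 for ARNT, 0.066 and 0.073 in 2014 (0.064 and 0.10 with sex as a further term), SAR 2016 against 2014 was 0.33 and 0.29, and AHR between the sexes 0.16. Reversed were ARNT with pregnancy (-0.0026), outcome (-0.056), 2014 against 2013 (-0.0042), 2018 against 2013 (0.021), 2018 against 2014 (0.026) and 2017 against 2014 (0.13), ALDH3B1 with cohort (-0.016), outcome (-0.15), 2014 against 2013 (-0.12), 2018 against 2013 (0.042) and 2018 against 2014 (0.17), and AHR in 2017 against 2014 (0.062). With quantile normalization, BAR against SAR was -0.077 for AHR and 0.0074 for ARNT, 0.14 and 0.12 in 2014, SAR 2016 against 2014 was 0.40 and 0.34, and AHR between the sexes 0.15. Reversed were ARNT with outcome (-0.072), 2018 against 2014 (0.035), 2018 against 2013 (0.045) and 2017 against 2014 (0.14), ALDH3B1 with cohort (-0.048), outcome (-0.16), 2014 against 2013 (-0.087), 2018 against 2013 (0.068) and 2018 against 2014 (0.15), and AHR in 2017 against 2014 (0.066).

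Against SAR, collections alone gave as deposited 0.25, 0.14 and 0.20 for AHR in July 2018, June 2013 and June 2017, and 0.31 and 0.35 for ARNT in July 2018 and June 2013. With median-ratio scaling AHR gave -0.10, -0.28, -0.10, -0.21 and 0.13 in July 2018, June 2013, June 2014, June 2017 and September 2017, and ARNT -0.047, -0.069, -0.073, -0.019 and 0.13. BAR against SAR was 0.12 for AHR in females, 0.43 for AHR and 0.25 for ARNT in males, 0.26 for AHR with sex as a term and 0.31 without the filter (adjusted p = 0.071, limma). AHR between the sexes was 0.36 without the filter (adjusted p = 0.081), 0.26 in BAR only, 0.33 with collection as a term and 0.33 without the BAR library of lowest summed FPKM. Without that library, 2018 against 2013 was 0.067 for ALDH3B1 and 0.0702 for ARNT, and 2018 against 2014 was 0.062 for ALDH3B1. In BAR only, ALDH3B1 with pregnancy was -0.24 and ARNT with outcome -0.022. With collection and sex as terms, anemia gave 0.048 for AHR and 0.0064 for ARNT, and with collection outcome gave -0.13 for ALDH3B1. A pseudocount of 0.1 gave -0.0007 for ARNT and lung score.

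Of the 27 marker relations 9 passed with scaling and 16 as deposited, and within SAR 0 and 3. Of the 3 between members 1 and 2 passed, and within SAR 0 and 1. Markers that share a module with the gene are among these counts. As deposited the relations of ARNT with B and T cells were r = 0.038 and 0.37. The loci called ranged over the alternatives from 28 to 8662 between sites, 1050 to 8352 in 2014, 120 to 1873 between SAR years, 0 to 588 for 2017 against 2013, 17 to 359 for 2017 against 2014, 1 to 322 between cohorts and 16 to 864 between the sexes. The alternative without the lowest library applies only to comparisons that hold it. FPKM without read totals, 16 SAR samples and 6 to 9 samples in the smaller health groups limit the precision.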

Other observations

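ALDH3B1 lay below 10 FPKM, a limit chosen after the values were seen, in 12 samples, 7 from BAR and 5 from SAR. Of these samples 7 were of females and 5 of males, 2 of them from the same male, and 3 of the BAR samples were from animals with anemia. AHR in these samples ranged from 10.9 to 22.9 FPKM and ARNT from 8.67 to 23.8 FPKM. The lowest ALDH3B1 of all libraries, 1.86 FPKM, belonged to the single SAR sample with a hepatobiliary finding, whereas the 9 BAR samples with this finding all had at least 22.1 FPKM. For the 5 BAR samples from animals whose birth cohort could not be determined, AHR ranged from 8.49 to 25.6 FPKM, ARNT from 6.88 to 23.5 FPKM and ALDH3B1 from 11.6 to 73.0 FPKM.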
